A study of Mus musculus with 12 samples.

Results

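The response to the carcinogen 7,12-dimethylbenz[a]anthracene (DMBA) was described in mouse embryonic fibroblasts (MEFs, connective tissue cells grown from embryos) that lack STING. Members were chosen by sample title: the 6 of the 12 Illumina MouseWG-6 bead arrays whose titles begin with STKO or SKO, 4 from cells given DMBA and 2 from cells given its solvent, DMSO. STKO cells are Sting -/- Trex1 -/- and SKO cells are Sting -/- Trex1 +/+, so STING is absent from every culture described and TREX1 from the STKO cultures too. DMBA was given at 20 µg/ml for 24 or 48 h. The other 6 arrays hold the same treatments of TKO (Sting +/+ Trex1 -/-) and WT (Sting +/+ Trex1 +/+) MEFs. All cells had a C57BL6/129Sv background, came from E13.5 embryos and grew in DMEM with 10% FBS. Each genotype and treatment has 1 array, and nothing in the labels ties an array to an embryo or a culture of its own, so p-values measure only the spread between these single arrays, which may be technical. The labels give no culture time for the DMSO arrays, so that DMBA and time in culture cannot be told apart.

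DMBA is a polycyclic aromatic hydrocarbon. It binds the aryl hydrocarbon receptor (AhR), which switches on the enzymes that oxidise it, and in fibroblasts the cytochrome P450 CYP1B1 turns it into epoxides that bind DNA. Damaged DNA activates the transcription factor p53, and reactive intermediates activate NRF2, which drives glutathione and thioredoxin enzymes. STING is the adaptor through which the cytosolic DNA sensor cGAS induces interferon and inflammatory genes, and TREX1 is the exonuclease that removes DNA from the cytosol.

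Levels below are log2 normalized intensities, differences are log2, and the error after ± is the standard error of the fit over STKO and SKO. A gene "rose" or "fell" where limma's adjusted p was under 0.05 over all 17077 probes tested, and each gene is given by its brightest tested probe. Where a probe was undetected on every array of a group, the fold is given as a lower bound ("at least"). Between 15662 and 16516 of 45281 probes were detected per array, and the correlation between arrays ran from 0.946 to 0.992. The probe for Sting1 read 5.06, 5.66 and 5.93 in STKO cells (DMSO, 24 h, 48 h) and 5.38, 5.52 and 6.01 in SKO cells, against 7.90, 8.12 and 7.97 in TKO cells and 7.80, 8.05 and 7.93 in WT cells. Trex1 read 6.22 to 7.19 in STKO cells and 8.12 to 8.33 in SKO cells, so both targeted genes were lower in the genotypes labelled as lacking them. All 13 fibroblast markers were detected on all 6 arrays. The 16 macrophage markers tested were also present, with 14 to 16 detected per array.

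With the 4 DMBA arrays set against the 2 DMSO arrays and genotype as a block, 3 probes rose (0.0176%) and 12 fell (0.0703%), 0.0878% of those tested in all, while 3880 had an unadjusted p under 0.05. On the brightest probe of a gene, 1 gene rose and 8 fell. Sgsm2, a modulator of small GTPases, was the riser: it read 7.86 and 8.19 in STKO cells at 24 and 48 h against 6.42 under DMSO, and 7.60 and 7.74 in SKO cells against 5.74 (1.77 ± 0.17, limma adjusted p = 0.043). The fallers were the adhesion protein Sdk1, the myeloid fatty acid receptor Gpr84, the kinase Stk32a, elastin (Eln), the macrophage Fc receptor-like gene Fcrls, Enox1, the blood cell adaptor Dok2 and the laminin chain Lama1. Gpr84 read 4.67 and 4.55 in DMBA-treated STKO cells against 7.21 under DMSO, and 4.78 and 4.64 in SKO cells against 7.31, at least 2.82-fold lower with DMBA (adjusted p = 0.0124).

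Of the 8 fallers 7 were undetected on all 4 DMBA arrays, so their size and any step between the times are not known. Fcrls, the exception, read 8.07 and 7.50 in DMBA-treated STKO cells against 9.91 under DMSO, and 7.75 and 7.72 in SKO cells against 9.91. The 2 times count as replicates in this comparison, so that it favours genes of like level at both times, and movement between them adds to the error. Cyp1b1 (1.34 ± 0.20, adjusted p = 0.0605) and Cdkn1a (1.04 ± 0.19, adjusted p = 0.0735) missed the threshold. Their differences were smaller than that of Sgsm2 and their errors close to its error. With time as a term in the fit, 1850 probes were higher and 1884 lower. The count was 167 without the SKO 24 h array and 0 without each of the other 5, it was 150 without background correction, and with median scaling 11 probes were higher and 15 lower. The times are therefore given apart below. In those fits the error comes from how far STKO and SKO cells differ in their response. Their calls therefore favour probes on which the 2 genotypes moved alike.

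At 48 h 2251 probes rose and 2345 fell, 26.9% of those tested (13.2% higher, 13.7% lower), and 3133 genes had at least 1 called probe. On the brightest probe of a gene, 1278 genes rose and 1328 fell. The median difference of all 9561 genes was -0.02, and lists below are read against these shares. Counts are over list members that passed the detection filter (detected on at least 2 of the 6 arrays): 22 of 26 listed NRF2 targets, 27 of 32 p53 targets, 23 of 30 mitosis, 28 of 31 S phase, 16 of 21 cholesterol synthesis and 15 of 18 ATF4 genes, 28 of 48 interferon-stimulated genes, 25 of 38 cytokines and chemokines, 27 of 31 matrix genes and 16 of 19 macrophage markers. Without the STKO 48 h array 610 probes were called and without the SKO 48 h array 1876. Of 119 called genes chosen for naming at 48 h, 54 were called whichever array was left out, and each of the other 65 was lost without the STKO 48 h array. With median scaling in place of quantile normalization, which moved the median of all probes from 0.01 to 0.12 in STKO cells at 24 h, 2836 probes were higher and 1959 lower at 48 h.

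Genes ranked by size here were called and moved the same way in both genotypes, a condition set for naming them. The risers with the greatest differences at 48 h were Cox6b2, Svop, Mmp12, 1700007K13Rik, Nqo1, Gsta3, Gsta4, Espn, Prl2c2 and Gsta1. Cox6b2, the testis form of a cytochrome oxidase subunit, read 6.01, 8.45 and 10.91 in STKO cells under DMSO, at 24 h and at 48 h and 5.67, 7.09 and 9.98 in SKO cells (4.60 ± 0.24). Mmp12, the elastin-degrading metalloproteinase known from macrophages, read 6.60, 9.03 and 10.75 in STKO and 5.83, 8.33 and 10.49 in SKO cells (4.40 ± 0.17, adjusted p = 0.000335). Svop, a synaptic vesicle protein, was at least 19.0-fold and Espn, an actin-bundling protein, at least 10.7-fold higher. All these levels climbed at each step in each genotype. The greatest falls were those of Cx3cr1, Ccl12, Piezo2, Hey1, Slc24a3, Prkg1, Sdk1, Nppb, Tgfbi and Stk32a. Hey1, a Notch target, read 9.69, 7.79 and 6.70 in STKO and 10.47, 9.17 and 7.30 in SKO cells (-3.08 ± 0.20). Piezo2, a mechanically gated channel, read 8.65, 6.42 and 4.87 in STKO and 8.80, 7.55 and 5.82 in SKO cells (-3.38 ± 0.24). Slc24a3 and Prkg1 were no longer called without the STKO 48 h array (adjusted p = 0.055 and 0.0669). In the plot of levels by array, the lines of the genotypes run side by side for most genes shown.

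**Figure D1:**
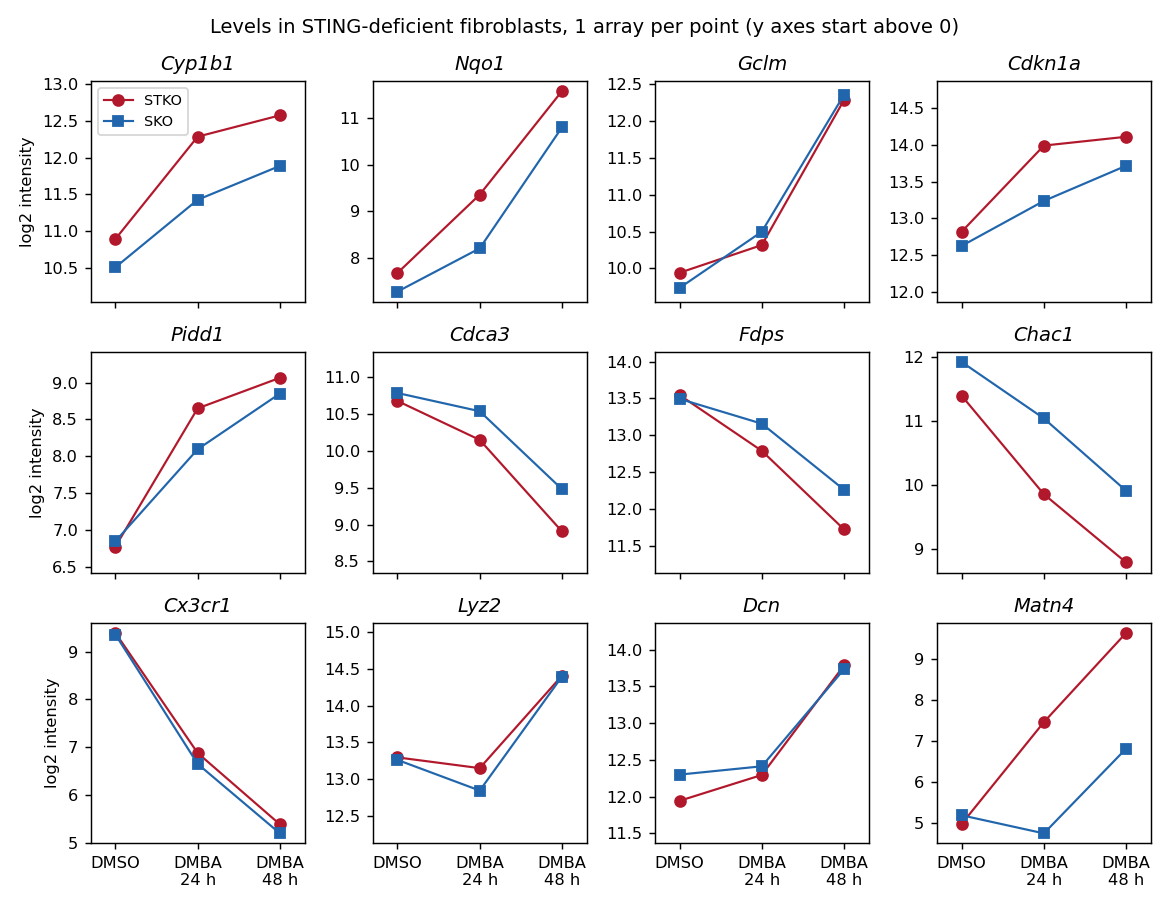
Level (log2 normalized intensity, vertical axis) of 12 genes on each of the 6 STING-deficient arrays, by treatment (DMSO, DMBA 24 h, DMBA 48 h); red circles are STKO and blue squares SKO arrays, 1 array a point. Nqo1 and Gclm climb mostly between 24 and 48 h, Pidd1 and Cdkn1a mostly before 24 h, and Matn4 lies apart in STKO cells after DMBA.

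Of 10 AhR targets listed 7 passed the filter, and Cyp1a1, Cyp1a2 and Tiparp did not. The 7 rose at 48 h, but 5 of them were undetected on both DMSO arrays and entered the test only through DMBA arrays, so their count has no weight of its own. CYP1B1 is the enzyme that activates DMBA: Cyp1b1 read 10.89, 12.28 and 12.57 in STKO cells and 10.51, 11.43 and 11.89 in SKO cells (1.53 ± 0.16, adjusted p = 0.00243). Nqo1, a quinone reductase driven by both AhR and NRF2, read 7.67, 9.36 and 11.59 in STKO and 7.26, 8.20 and 10.81 in SKO cells (3.74 ± 0.19, adjusted p = 0.000556). The aldehyde dehydrogenase Aldh3a1 read 4.51, 5.62 and 6.37 in STKO and 4.73, 5.63 and 7.98 in SKO cells, at least 2.73-fold higher at 48 h. The glucuronosyltransferase Ugt1a6a was at least 2.84-fold higher. Gsta1 (at least 4.25-fold) and Gsta2 (at least 2.41-fold) are near-identical glutathione transferases whose probes may share signal. Ahrr, the repressor of the receptor, passed by the least (at least 1.71-fold, adjusted p = 0.0495). The median of the 7 is 2.45 as fitted and 1.51 with the undetected ones at their bounds.

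NRF2 targets rose together and late: 18 of 22 rose at 48 h and none fell, with a median of 1.58 in STKO and 1.64 in SKO cells, against 0.33 and 0.31 at 24 h. Without the STKO 48 h array 13 were called. The glutathione enzymes led. Gsta4 read 8.01, 9.40 and 11.58 in STKO and 8.35, 9.66 and 11.92 in SKO cells (3.57 ± 0.13, adjusted p = 0.000335). Gclm, the regulatory subunit of the enzyme that begins glutathione synthesis, read 9.94, 10.32 and 12.29 in STKO and 9.73, 10.50 and 12.36 in SKO cells (2.49 ± 0.15). Both genotypes thus reached nearly the same level at 48 h from nearly the same start. Srxn1, which repairs oxidised peroxiredoxins, differed by 2.67 ± 0.13, Txnrd1, thioredoxin reductase, by 2.22 ± 0.20, and the cystine importer Slc7a11 by 2.14. Slc7a11 read 6.39, 6.54 and 8.93 in STKO and 7.09, 6.87 and 8.83 in SKO cells, so its whole change came after 24 h. Prdx1, already close to the top of the scale, rose least among those printed below (0.56 ± 0.13, adjusted p = 0.0227). The members not called were Tkt (-0.39), Ftl1 (0.21), Fth1 (-0.12) and Abcc4 (0.58, adjusted p = 0.0743). Another probe of Gstm1 differed by -0.36, uncalled, while the brightest rose by 2.56 ± 0.14.

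NRF2 binds the antioxidant response element, and the start regions of called NRF2 targets are shown because the group moved together. The letters TGACNNNGC were searched on either strand in the RefSeq window from 250 bases before to 50 after each gene start (GRCm38.p6). They occurred in 7 of the 18 listed NRF2 genes with a window (38.9%), in 15% of 20 p53 targets and 0 of 6 AhR targets, against 14% of 27025 genes. The 5 stretches below are read on the + strand, with the element in capitals. In Srxn1, called too, the letters begin 28 bases past the gene start, and that stretch is not shown. The remaining gene with the letters, Abcc4, holds them in each of its windows and was not called at 48 h.
Gclm: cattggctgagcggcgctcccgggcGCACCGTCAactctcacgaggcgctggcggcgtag
Gsta3: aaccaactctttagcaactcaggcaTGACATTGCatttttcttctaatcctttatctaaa
Mgst1: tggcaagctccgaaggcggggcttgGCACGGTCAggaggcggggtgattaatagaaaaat
Prdx1: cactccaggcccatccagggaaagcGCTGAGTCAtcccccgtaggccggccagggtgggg
Txnrd1: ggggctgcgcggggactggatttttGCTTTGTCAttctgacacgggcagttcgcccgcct
They lie at chr3:122245398-122245457 (Gclm), chr1:21240439-21240498 (Gsta3), chr6:138140446-138140505 (Mgst1), chr4:116685441-116685500 (Prdx1) and chr10:82859089-82859148 (Txnrd1). From the gene start, the element begins at -134, -121, -56, -133 and -92 in that order. Its TGAC letters can overlap motifs of other factors such as AP-1, which were not searched, and a match is a description of these letters only. The core letters of the AhR element, GCGTG on either strand, were in 4 of 6 AhR targets with a window (66.7%), but also in 61.1% of the NRF2 and 65% of the p53 targets, against 35.2% of genes.

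Of p53 targets 20 of 27 rose at 48 h and none fell, with medians of 0.94 in STKO and 0.69 in SKO cells. Its medians at 24 h were 0.73 in STKO and 0.34 in SKO cells. Pidd1, a death-domain scaffold, read 6.77, 8.65 and 9.07 in STKO and 6.84, 8.10 and 8.85 in SKO cells (2.15 ± 0.18, adjusted p = 0.00139). Mdm2, which degrades p53, read 11.66, 13.23 and 13.76 in STKO and 11.65, 12.32 and 13.33 in SKO cells (1.89 ± 0.22, adjusted p = 0.00328). The cell cycle inhibitor Cdkn1a (p21) read 12.82, 13.99 and 14.11 in STKO and 12.63, 13.24 and 13.72 in SKO cells (1.19 ± 0.17, adjusted p = 0.0056). In each of the 3, STKO cells had come closer to their 48 h level by 24 h than SKO cells had. Trp53inp1 (1.57 ± 0.18), Psrc1 (1.22 ± 0.15) and the death receptor Fas (1.78 ± 0.33) rose too. Sesn1, Gadd45a, Bbc3, Plk2, Plk3, Xpc and Apaf1 did not pass. The list's count was 3 without the STKO 48 h array.

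Among excision repair and translesion synthesis genes, 4 of 19 rose and 1 fell, shares near those of all probes. The lesion-bypass polymerase Polk (1.31 ± 0.17), the excision nuclease Ercc5 (1.29 ± 0.21), Rev1 (0.90 ± 0.15) and the damage sensor Ddb2 (0.57) rose. The polymerase Polh fell (-0.75 ± 0.14, adjusted p = 0.013): it read 8.05, 7.75 and 7.20 in STKO and 7.86, 7.90 and 7.21 in SKO cells. Without the STKO 48 h array 0 of them were called higher.

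Cell cycle genes fell. Of mitosis genes 17 of 23 fell and 1 rose at 48 h, with a median of -1.26 in STKO and -0.45 in SKO cells. Cdca3, a trigger of mitotic entry, read 10.68, 10.15 and 8.91 in STKO and 10.79, 10.54 and 9.48 in SKO cells (-1.54 ± 0.16, adjusted p = 0.00234). Cdca8 of the chromosome passenger complex (-1.34), the phosphatase Cdc25c (-1.18) and the centromeric histone Cenpa (-1.18) fell too, and the kinetochore gene Spc25 rose (0.51 ± 0.13, adjusted p = 0.03). The list's count was 1 without the STKO 48 h array. Of S phase genes 7 of 28 fell and none rose, with a median of -0.81 in STKO and -0.15 in SKO cells at 48 h. Thymidylate synthase, Tyms, read 11.16, 10.89 and 10.29 in STKO and 11.25, 10.90 and 10.48 in SKO cells (-0.82 ± 0.13), and the replication factor Gins1 (-0.97), Cdc45 (-0.76) and the histone chaperone Chaf1a (-0.69) fell. Without the STKO 48 h array 0 S phase genes were called.

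Genes of biosynthesis fell with them. Of cholesterol synthesis genes 12 of 16 fell at 48 h, with medians of -1.41 in STKO and -0.73 in SKO cells. Farnesyl diphosphate synthase, Fdps, read 13.55, 12.79 and 11.72 in STKO and 13.49, 13.16 and 12.26 in SKO cells (-1.53 ± 0.17, adjusted p = 0.00312). Mevalonate kinase, Mvk, was at least 2.06-fold lower, and Cyp51 (-1.19) and squalene epoxidase, Sqle (-1.14), fell. The count was 2 without the STKO 48 h array. Of ATF4 targets, which serve amino acid supply, 9 of 15 fell. The glutathione-degrading enzyme Chac1 read 11.39, 9.85 and 8.78 in STKO and 11.92, 11.03 and 9.90 in SKO cells (-2.31 ± 0.19, adjusted p = 0.00139), the transaminase Bcat1 changed by -2.17 ± 0.24, Mthfd2 by -1.58 and asparagine synthetase, Asns, by -1.24 ± 0.15. The transcription factor Atf3 was the list's 1 riser (1.44 ± 0.40, adjusted p = 0.0402). Of ER chaperone and unfolded protein response genes 6 of 14 fell, among them Xbp1 (-1.24 ± 0.15) and calreticulin, Calr (-1.12), and 1 rose, the chaperone partner Dnajb9 (0.49). Without the SKO 48 h array 2 of the ER genes were called lower. Of 27 proteasome genes 1 fell, Psmb2 (-0.46, adjusted p = 0.041).

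**Figure D2:**
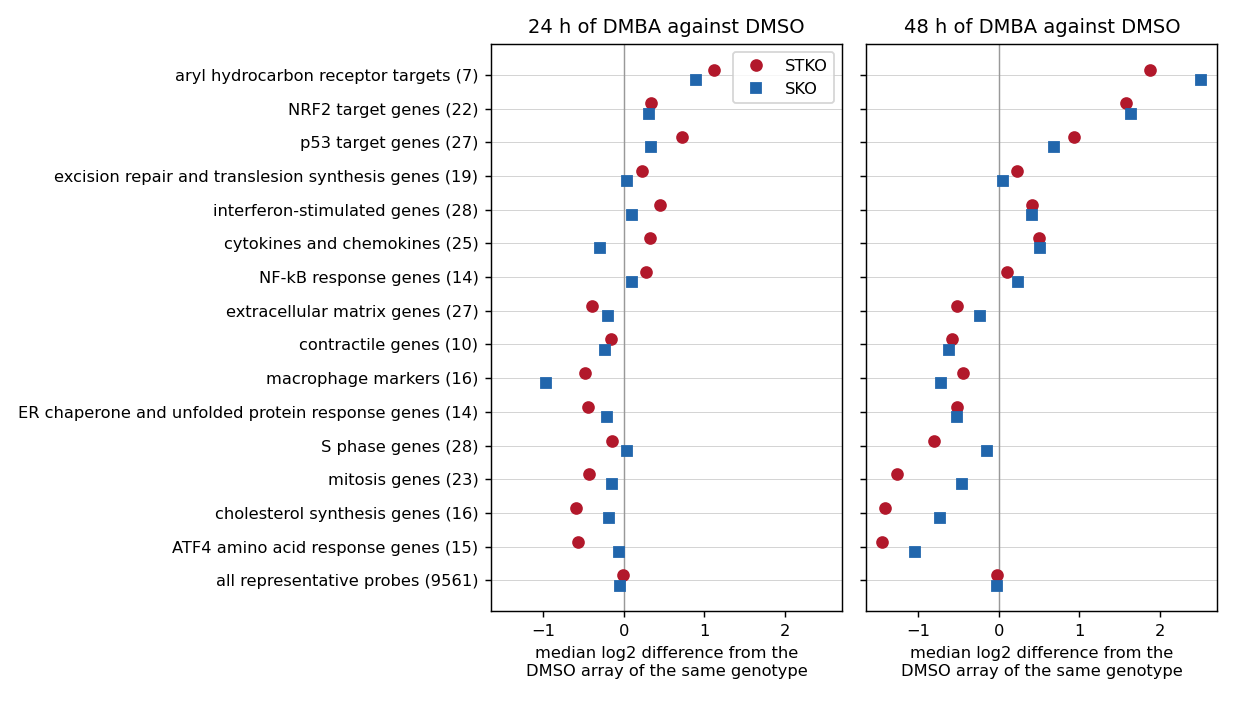
Median log2 difference from DMSO (horizontal axis) of 15 gene lists and of the representative probes of all genes, at 24 h (left) and 48 h (right), in STKO (red circles) and SKO (blue squares) cells. At 48 h AhR and NRF2 targets lie highest in both genotypes, and for mitosis and cholesterol synthesis genes the STKO point lies farther below 0 than the SKO point. Of the 7 AhR targets 5 were undetected on both DMSO arrays, so the height of the AhR points depends on background.

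Some inflammatory and interferon genes rose in the absence of STING. Of 28 interferon-stimulated genes tested at 48 h 9 rose and 1 fell, with medians of 0.42 in STKO and 0.41 in SKO cells. Ifit3, an antiviral effector, read 6.71, 7.56 and 8.19 in STKO and 6.79, 7.20 and 8.45 in SKO cells (1.57 ± 0.18). The secreted lectin-binding protein Lgals3bp read 9.61, 10.63 and 11.11 in STKO and 9.82, 10.40 and 11.52 in SKO cells (1.60 ± 0.18, adjusted p = 0.0031). Isg15, a ubiquitin-like interferon target, was uncalled at 0.37 ± 0.32 (adjusted p = 0.41): it read 6.09, 7.14 and 6.21 in STKO and 6.29, 6.36 and 6.90 in SKO cells, so the genotypes peaked at different times. Ifitm3 (0.98), Gbp3 (1.37) and the peptide transporter Tap1 (at least 2.47-fold) rose and the nucleotide hydrolase Samhd1 fell (-0.47). The count was 3 without the STKO 48 h array.

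Among cytokines and chemokines 12 of 25 rose and 4 fell at 48 h. Kitl, the ligand of KIT, read 5.75, 6.10 and 7.74 in STKO and 5.53, 5.37 and 7.29 in SKO cells (1.88 ± 0.16, adjusted p = 0.00158). The monocyte chemokine Ccl2 read 9.62, 9.98 and 10.36 in STKO and 9.40, 9.73 and 10.16 in SKO cells (0.75 ± 0.13, adjusted p = 0.00932). The macrophage growth factor Csf1 rose by 0.80. The fallers were Il33 (-1.47 ± 0.19), Tnf (at least 1.18-fold lower), Il1rn (-0.90) and Tnfsf11 (at least 1.42-fold lower). Il6 read 6.97, 7.07 and 6.92 in STKO and 5.74, 6.74 and 5.94 in SKO cells, with no call at 48 h (0.07 ± 0.22, adjusted p = 0.829). Of NF-kB response genes 5 of 14 rose. The adhesion molecule Icam1 read 6.87, 8.58 and 9.54 in STKO and 6.92, 7.03 and 8.77 in SKO cells (2.26 ± 0.34, adjusted p = 0.00652), and the prostaglandin synthase Ptgs2 (1.15 ± 0.19), Vcam1 (0.74), the inhibitor Tnfaip3 (0.65) and Tnfaip2 (0.60) rose. The cytokine riser count was 2 without the SKO 48 h array and the NF-kB count 0 without the STKO 48 h array, where 1 cytokine was called lower. Of 13 genes of cytosolic DNA sensing, 4 rose and 1 fell: the kinase Ikbke (0.91), the RNA editor Adar (0.58), the lysosomal nuclease Dnase2a (0.71) and the Sting1 probe (0.75 ± 0.15, at least 1.18-fold), against Rnaseh2b (-0.72). These 4 were not called without the STKO 48 h array. Since the cells are labelled Sting -/-, what the Sting1 probe reads there is not given by the labels.

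Matrix and contractile genes mostly fell where they changed. Of extracellular matrix genes 8 of 27 fell and 1 rose at 48 h. Eln was at least 3.01-fold lower, Tgfbi read 10.73, 9.23 and 7.29 in STKO and 11.00, 9.92 and 8.83 in SKO cells (-2.81 ± 0.28), and the growth factor modulator Ccn2 read 14.75, 14.59 and 13.09 in STKO and 14.52, 14.21 and 12.92 in SKO cells (-1.63 ± 0.13). The small proteoglycan decorin, Dcn, was the riser: 11.94, 12.29 and 13.78 in STKO and 12.30, 12.41 and 13.73 in SKO cells (1.64 ± 0.15, adjusted p = 0.00181). Without the STKO 48 h array 4 matrix genes were called lower. Of metalloproteinases and inhibitors Mmp12 and the stromelysin Mmp3 rose and Mmp9 (-1.59), Mmp10 (-0.99) and Mmp13 (-1.13) fell. Mmp3 dipped before it climbed: it read 6.19, 5.56 and 7.38 in STKO and 7.35, 5.52 and 8.82 in SKO cells (1.33 ± 0.33 at 48 h). Of contractile genes 6 of 10 fell, among them smooth muscle gamma-actin, Actg2, at 12.76, 12.05 and 11.44 in STKO and 12.78, 12.15 and 11.56 in SKO cells (-1.27 ± 0.13). Mylk (-2.34), Smtn (-1.15) and Tagln (-0.81) fell too. The brightest Acta2 probe differed by 0.05, while its 4 other probes fell by 0.75 to 1.02.

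Macrophage markers split. In bulk RNA, fewer cells of a type and less RNA per cell cannot be told apart. Of 16 tested, 7 fell and 5 rose at 48 h, whereas 8 fell and none rose at 24 h. Cx3cr1, the fractalkine receptor, read 9.40, 6.88 and 5.38 in STKO and 9.36, 6.65 and 5.19 in SKO cells, at least 12.7-fold lower at 48 h. The complement gene C1qa read 8.98, 7.84 and 6.99 in STKO and 8.74, 7.81 and 6.95 in SKO cells (-1.89 ± 0.13), and Mrc1 (-1.74), Csf1r (-1.49), C1qb (-1.27), C1qc (-1.26) and Aif1 (at least 2.12-fold lower) fell. Lysozyme went the other way: Lyz2 read 13.30, 13.15 and 14.41 in STKO and 13.26, 12.84 and 14.40 in SKO cells (1.12 ± 0.14), and Cd53 (1.39), Ctss (0.98), Tyrobp (0.82) and Lyz1 (0.58) rose, Lyz1 and Lyz2 being close copies. The summed level of the markers was 15.6, 15.4 and 16.1 in STKO and 15.6, 15.1 and 16.1 in SKO cells (DMSO, 24 h, 48 h), and of the 16 Cx3cr1 was undetected at 48 h and Aif1 at 48 h and in SKO cells at 24 h. Without the STKO 48 h array 1 marker was called higher and 5 lower. Gpr84, Fcrls, Dok2, Ccl12 and Mmp12 are also genes of macrophages, and the part of macrophage RNA in their changes was not tested. Of 13 fibroblast markers 4 fell (Col1a1 -1.0, Pdgfrb -0.90, Prrx1 -0.77, Vim -0.65) and Dcn rose. The few markers of other cell types gave 3 risers (Tnnc1 0.99, Nes 1.01 and Cebpa at least 1.07-fold), beside Matn4 below, and 2 fallers, Acta1 (-1.76) and Emcn.

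At 24 h 521 probes rose and 567 fell, 6.37% of those tested (3.05% higher, 3.32% lower), and 819 genes had at least 1 called probe. On the brightest probe of a gene, 272 genes rose and 345 fell. With median scaling 1240 probes were higher and 536 lower. The greatest risers included Mmp12 (2.46 ± 0.17, adjusted p = 0.00925), 1700007K13Rik (2.88 ± 0.36), Espn (at least 4.28-fold), Svop (at least 3.44-fold) and the annexin Anxa8. Anxa8 read 6.44, 8.69 and 8.10 in STKO and 6.62, 8.35 and 7.60 in SKO cells, so that its level was highest at 24 h. Cx3cr1 (-2.62 ± 0.13, adjusted p = 0.00346), the kinase Prkg1 (-2.77 ± 0.43) and Sdk1 (at least 4.83-fold lower) led the fallers. Of p53 targets 10 of 27 rose (among them Pidd1 1.57, Mdm2 1.12 and Cdkn1a 0.89 ± 0.17) and 1 fell, Sesn1 (-0.88), and of macrophage markers 8 of 16 fell. Of AhR targets 2 of 7 rose (Cyp1b1 1.16 ± 0.16 and Nqo1 1.31), and of NRF2 targets 4 of 22 (Gsta4 1.35, Mgst1 0.88, Gstm1 0.85 and Srxn1 0.68). Mitosis, S phase, cholesterol and ATF4 genes had 1 faller each (Cdca8, Gins1, Mvk and Chac1). Of proteasome genes Psmd6 rose (1.01). Of interferon-stimulated genes Tap1 alone was called (at least 2.19-fold higher), and of NF-kB genes Ptgs2 alone (0.94). With 1 array per genotype these calls rest on each array: 4 probes were called without the SKO 24 h array, 0 without the STKO 24 h array, 237 without either 48 h array, 549 without STKO under DMSO and 1242 without SKO under DMSO. No p53, NRF2, AhR or matrix gene was called without the SKO 24 h array, and no macrophage marker without the STKO 24 h array.

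Between 24 and 48 h 901 probes rose and 740 fell, 9.61% of those tested (5.28% higher, 4.33% lower). NRF2 targets had 16 of 22 risers in this interval and a median of 1.16, and p53 targets 1 of 27 (Sesn1, 0.82) and a median of 0.34. AhR targets had 5 risers of 7. ATF4 genes had 8 fallers of 15 and 1 riser, cholesterol genes 4 fallers of 16, and mitosis genes 3 of 23. These counts move with each array: over fits with 1 array left out they ran from 0 to 17 for NRF2 targets, 0 to 11 for p53 targets, and 0 to 10 for each of the ATF4, cholesterol and mitosis lists. The endothelin receptor Ednrb was late: it read 7.30, 6.90 and 9.88 in STKO and 7.26, 7.68 and 10.55 in SKO cells (2.93 ± 0.21 between the times). Gprasp2 read 5.16, 5.21 and 7.44 in STKO and 5.45, 5.38 and 7.85 in SKO cells, at least 3.53-fold higher at 48 h. Neither had moved in the same direction in both genotypes by 24 h. Among late fallers, the flow-responsive transcription factor Klf2 read 9.75, 9.35 and 7.25 in STKO and 9.76, 9.78 and 8.32 in SKO cells (-1.78 ± 0.24), and Bok, a BCL2 family member, 10.39, 10.44 and 8.86 in STKO and 10.36, 10.56 and 9.11 in SKO cells (-1.51 ± 0.14). The lipid transporter Mfsd2a read 7.80, 7.40 and 5.01 in STKO and 7.24, 6.76 and 5.15 in SKO cells, undetected at 48 h and at least 2.58-fold lower than at 24 h. Without the SKO 24 h, SKO 48 h or STKO 48 h array 0 probes were called, without the STKO 24 h array 60, and without either DMSO array 3093.

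More probes lay past 2-fold of DMSO in STKO than in SKO cells. Each genotype has 1 array per treatment, so these sizes carry no test. Past 2-fold of their own DMSO array were 731 probes in STKO cells and 525 in SKO cells at 24 h (4.28% and 3.07%), and 1930 in STKO cells and 1048 in SKO cells at 48 h (11.3% and 6.14%). By direction, 1.94% were higher and 2.34% lower in STKO cells at 24 h, 1.6% and 1.47% in SKO cells, and at 48 h 5.76% and 5.54% in STKO and 3.54% and 2.59% in SKO cells. Over all probes, however, the median size of the difference was smaller in STKO cells at 24 h (0.248 in STKO and 0.272 in SKO cells) and larger at 48 h (0.351 in STKO and 0.297 in SKO cells). The SD of all differences was 0.468 in STKO and 0.441 in SKO cells at 24 h, and 0.675 in STKO and 0.543 in SKO cells at 48 h. Without background correction the counts were 306 in STKO and 179 in SKO cells at 24 h, and 1029 in STKO and 493 in SKO cells at 48 h. Past 2-fold between 24 and 48 h the order was the other way: 381 probes higher and 266 lower in STKO cells, and 422 higher and 270 lower in SKO cells. The ratio of the SD in STKO to that in SKO cells was 1.06 at 24 h and 1.24 at 48 h. On the first principal component of the 6 arrays (56.3% of variance) the DMSO arrays lay at -35.3 (STKO) and -37.8 (SKO), the 24 h arrays at 10.2 (STKO) and -13.2 (SKO) and the 48 h arrays at 50.7 (STKO) and 25.4 (SKO).

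**Figure D3:**
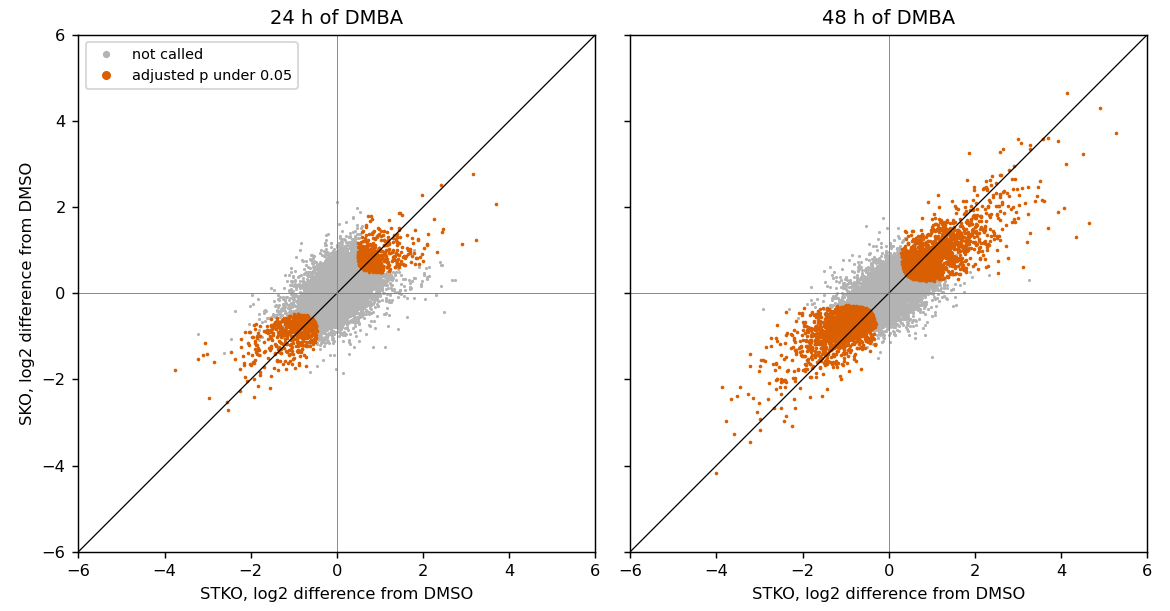
Log2 difference from the genotype's own DMSO array in STKO (horizontal) and SKO (vertical) cells for the 17077 probes tested, at 24 h (left) and 48 h (right), with called probes in orange. Pearson's r across probes, which is a description since each axis reuses a DMSO array at both times, was 0.60 at 24 h and 0.80 at 48 h.

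The share of the 48 h difference already present at 24 h was taken over probes called at 48 h whose own difference in that genotype was 0.5 or more, which gave 2007 risers in STKO and 1813 in SKO cells. The median share among risers was 48.4% in STKO cells (quartiles 25.3% and 70.4%) and 36.3% in SKO cells (7.86% and 68.0%), and among fallers 52.6% in STKO cells (28.6% and 76.3%) and 46.8% in SKO cells (19.1% and 75.5%), so that the ranges overlap widely. Of the 4596 probes called at 48 h 69.4% had the greater difference in STKO cells at that time, against 59.4% of all probes tested. Lists differed in how many members had the higher difference in STKO cells. At 24 h 26 of 27 p53 targets had the higher difference in STKO cells. This was not particular to them, since 24 of 28 interferon-stimulated, 13 of 14 NF-kB and 16 of 19 repair genes had it too. By contrast, 2 of 23 mitosis and 1 of 16 cholesterol genes had it at 24 h. The share over all genes was not taken, so these counts cannot be set against it. The median difference over all genes at 24 h was -0.005 in STKO and -0.0463 in SKO cells. At 48 h 0 of 23 mitosis genes, 0 of 28 S phase genes and 1 of 16 cholesterol genes had it, that is, nearly all stood lower in STKO cells. The medians of NRF2 targets at 48 h were close (1.58 in STKO and 1.64 in SKO cells). The median fall of macrophage markers at 24 h was larger in SKO cells (-0.47 in STKO and -0.96 in SKO cells). The median of AhR targets at 48 h was higher in SKO cells (1.87 in STKO and 2.51 in SKO cells). Yet 4 of the 7 AhR targets had the higher difference in STKO cells. Since 5 of the 7 were undetected on both DMSO arrays, these 2 medians depend on background.

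When the difference between genotypes was itself tested, with both times in the fit, 1 probe of 17077 was called (0.00586%), and 1396 had an unadjusted p under 0.05. That fit has 1 residual degree of freedom, so it can call only great differences. The probe was that of Matn4, matrilin 4, an extracellular matrix protein: it read 4.99, 7.46 and 9.63 in STKO cells and 5.20, 4.76 and 6.82 in SKO cells (2.97 ± 0.24, adjusted p = 0.0316). Matn4 was undetected on both DMSO arrays and on the SKO 24 h array, so that the difference is taken in part between readings at background and its size is not known. Next by p, and uncalled, came the intermediate filament gene Synm (2.35 ± 0.27, adjusted p = 0.127) and the TNF receptor family member Tnfrsf18 (2.26, adjusted p = 0.127). Tnfrsf18 read 4.38, 7.13 and 8.44 in STKO and 4.45, 4.76 and 6.43 in SKO cells, and it too was undetected on both DMSO arrays and on the SKO 24 h array. Another Synm probe gave 0.18. The stress factor Atf3 read 6.07, 8.17 and 8.34 in STKO and 6.60, 6.97 and 7.21 in SKO cells (1.69, adjusted p = 0.172), and Ldb2 read 8.04, 4.81 and 4.81 in STKO and 8.67, 7.72 and 7.25 in SKO cells (-2.04, adjusted p = 0.172), undetected on both STKO arrays with DMBA. For Cyp1b1 the difference was 0.39 ± 0.25 (adjusted p = 0.768) and for Cdkn1a 0.38 ± 0.27 (adjusted p = 0.788). The Matn4 call was not made with every probe tested, with only probes detected on all arrays, or in the fit of all 12 arrays, and 15 probes were called without background correction.

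Long genes fell more than short ones in both genotypes, and by more in STKO cells. At 48 h the share past 2-fold lower was greater in STKO cells among short genes as well. Lengths came from RefSeq gene spans for 9550 of 9561 genes. Among 380 genes over 200 kb the median difference was -0.64 at 24 h and -0.69 at 48 h in STKO cells, and -0.32 and -0.43 in SKO cells. Past 2-fold lower were 29.5% of them at 24 h and 32.9% at 48 h in STKO cells, and 9.74% and 14.5% in SKO cells. For 2514 genes under 10 kb those shares were 1.35% and 4.38% in STKO cells and 1.27% and 2.19% in SKO cells. Of the fallers named above, Prkg1 spans 1200.8 kb, Sdk1 974 kb, Enox1 566 kb, Slc24a3 474 kb, Piezo2 378 kb and Ldb2 364 kb, whereas Gpr84, Hey1 and Cx3cr1 span 2.4, 3.7 and 19.6 kb. Of the 8 fallers of the first comparison 2 were over 200 kb. Genes are not independent replicates, so the trend is a description of these 6 arrays. With every probe taken in, the shares of long genes past 2-fold lower were 13.1% and 14.7% in STKO and 4.60% and 6.29% in SKO cells.

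**Figure D4:**
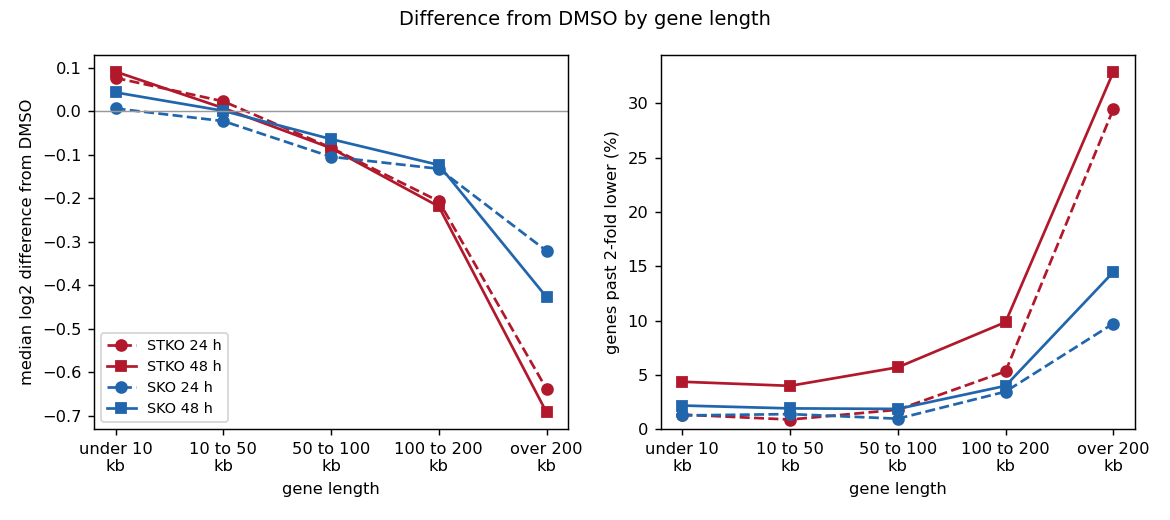
Median log2 difference from DMSO (left) and percent of genes past 2-fold lower (right) by gene length in 5 bins, for STKO and SKO cells at 24 and 48 h. The 4 lines lie together under 10 kb and part over 200 kb, where the STKO lines show the greater fall.

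The mean of the 24 and 48 h differences was then compared between the STING-deficient (STKO, SKO) and the STING-competent (TKO, WT) genotypes, over 18389 probes of all 12 arrays. It was higher without STING for 586 probes and lower for 536 (3.19% and 2.91%, 6.1% in all), and with median scaling 945 were higher and 416 lower. The whole response was smaller without STING. Of the 17077 probes tested above, 1769 (TKO) and 1530 (WT) lay past 2-fold of DMSO at 24 h, against 731 (STKO) and 525 (SKO). At 48 h these were 2704 (TKO) and 2783 (WT), against 1930 (STKO) and 1048 (SKO). Whether the differences of single genes below go beyond this was not tested. Cyp1b1 gave no call: its mean differences were 1.54 (STKO) and 1.15 (SKO) without STING, and 1.02 (TKO) and 1.21 (WT) with it (0.23 ± 0.17, adjusted p = 0.442). On the NRF2 list, which leaves out Nqo1, 2 of 23 genes were called, both higher without STING. Gstm1, a glutathione transferase, averaged 1.55 (STKO) and 1.86 (SKO) against 0.70 (TKO) and 1.01 (WT), and the export pump Abcc4 -0.10 (STKO) and 0.59 (SKO) against -0.91 (TKO) and -0.75 (WT). Nqo1, driven by NRF2 too but counted with the AhR targets, was the 1 of those 7 that was called. It rose less without STING, at 2.81 (STKO) and 2.24 (SKO) against 3.54 (TKO) and 3.57 (WT) (-1.03 ± 0.21, adjusted p = 0.0377).

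Of p53 targets 5 of 27 were called, all lower without STING. Cdkn1a averaged 1.23 (STKO) and 0.85 (SKO) against 1.77 (TKO) and 1.95 (WT) (-0.82 ± 0.19, adjusted p = 0.0452). Ccng1, cyclin G1, averaged 0.78 (STKO) and 0.78 (SKO) against 1.93 (TKO) and 2.06 (WT), and the BH3-only gene Pmaip1 1.38 (STKO) and 0.58 (SKO) against 3.48 (TKO) and 2.59 (WT). Plk3 and the nuclease Aen were the others. In each the STING-deficient values lay below both STING-competent ones. Of 16 NF-kB genes Ptgs2 was called (-1.37 ± 0.21), and of 31 cytokines 3 were lower, the interleukins Il6 (-1.62 ± 0.25) and Il11 (-1.95 ± 0.22) and the chemokine Ccl5 (-2.08 ± 0.49), which was near background without STING, and 1 was higher, Il18 (0.64). Of 40 interferon-stimulated genes Ifi27l2a was called, which averaged -0.60 (STKO) and -0.10 (SKO) against -1.55 (TKO) and -1.97 (WT) and was undetected on 3 of the 4 STING-deficient arrays with DMBA, and the other listed interferon genes were not called.

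Of extracellular matrix genes 3 of 27 were called higher and 1 lower without STING. Among the greatest differences over all genes, the integrin-like Itgbl1 averaged -0.30 (STKO) and -0.31 (SKO) against -2.94 (TKO) and -3.63 (WT) (2.98 ± 0.22, adjusted p = 0.00614). The collagen-binding integrin Itga11 averaged -1.54 (STKO) and -0.81 (SKO) against -3.82 (TKO) and -4.50 (WT), and the matrix protein periostin, Postn, 0.30 (STKO) and 0.16 (SKO) against -1.19 (TKO) and -1.17 (WT), where it was undetected after DMBA. Mmp12 rose more without STING, at 3.29 (STKO) and 3.58 (SKO) against 1.93 (TKO) and 2.61 (WT) (1.16 ± 0.26, adjusted p = 0.0423). The osteocalcin gene Bglap2 averaged 2.37 (STKO) and 0.82 (SKO) against 4.08 (TKO) and 4.85 (WT), and Tnfrsf18 3.41 (STKO) and 1.15 (SKO) against 5.13 (TKO) and 5.34 (WT). Both were undetected under DMSO in all genotypes and in SKO cells at 24 h, so that these sizes depend on background. The count was 0 without SKO under DMSO, 1412 without STKO under DMSO, and from 129 (without SKO 24 h) to 734 (without STKO 24 h) without each other array. Over the 12 fits with 1 array left out, Itgbl1, Itga11, Il11 and Postn were called in 11, Ccng1 in 10, Il6, Pmaip1 and Ifi27l2a in 7, and Ptgs2, Plk3 and Bglap2 in 6. Aen, Mmp12 and Tnfrsf18 were called in 3, Nqo1, Cdkn1a, Gstm1, Ccl5 and Abcc4 in 2 and Il18 in 0, so that these calls are lost in most fits.

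**Figure D5:**
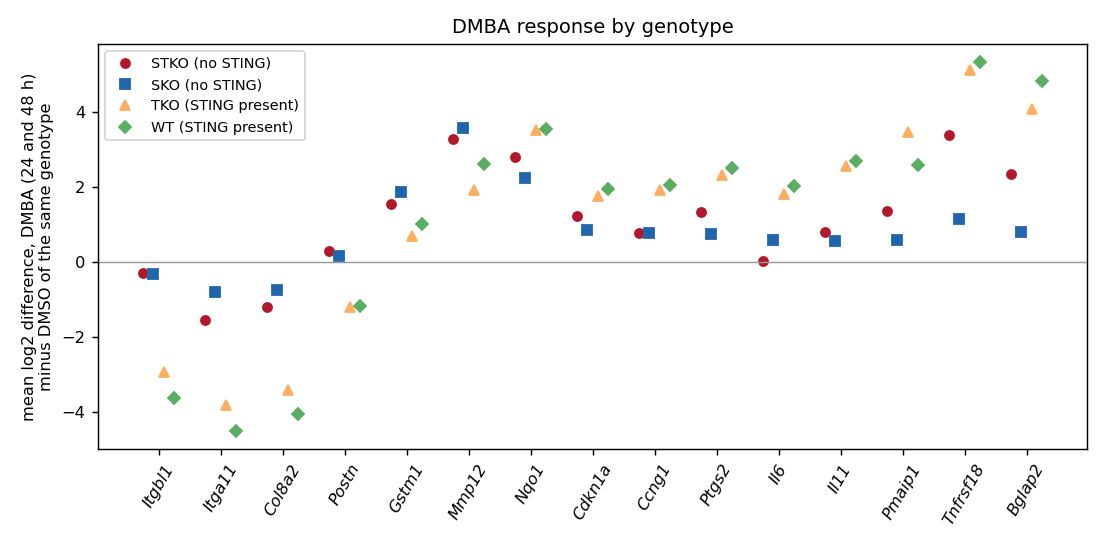
Mean of the 24 and 48 h log2 differences from DMSO (vertical axis) of 15 genes in each genotype: STKO, SKO, TKO and WT, 1 point each. Itgbl1 and Postn lie near 0 in STKO and SKO cells and below 0 in TKO and WT cells, and Pmaip1 and Il11 lie lower in STKO and SKO cells than in TKO and WT cells.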

How the data were processed

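Total RNA of the 12 MEF cultures was copied to biotin-labelled cRNA and hybridised to bead arrays, per the labels' protocols. The deposited scanner table gives an average intensity per probe and array, with no normalization, and a detection score, read here as 1 minus the detection p from its values; no source used here names the scanner software. The authors' value table holds log2 values. It matched quantile-normalized log2 intensity with no background correction, less the median of each probe across the 12 arrays, and serves as an alternative. There were 0 value columns without a sample.

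Intensities of all 12 arrays were background-corrected with normexp from the detection p-values (offset 16), quantile-normalized and put on the log2 scale with neqc (limma 3.58.1, R 4.3.3). Probes detected (p under 0.01) on at least 2 of the 6 STING-deficient arrays were tested with lmFit and eBayes with genotype as a block, 2-sided, and called where the p adjusted after Benjamini-Hochberg across all probes of the fit was under 0.05. The comparison with STING-competent cells used probes detected on at least 2 of 12 arrays. Of 45281 probes 34885 had 1 gene symbol, 18 several and 10378 none, and 34807 matched RefSeq by Entrez ID. Fits were checked on simulated data in which few probes were changed, unlike the real arrays. There the fits at 24 h, at 48 h and between the times recovered 0% of log2 changes of 1. Of log2 changes of 2 they recovered 79%, 77.4% and 79.6% in that order. The fit of STKO minus SKO recovered 0% of log2 changes of 1 or 2 and 65.4% of changes of 4. The number of arrays limits the precision.

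Genes named were the 10 greatest rises and falls among called genes of each comparison and up to 4 members with the smallest p of each list. For DMBA against DMSO and for 48 h against 24 h, these rises and falls came only from genes that moved the same way in both genotypes. With the times pooled, they had to do so at both times. No such condition applied to the differences between genotypes. Other list members were chosen after their values were seen. Members and lists were chosen with earlier results of these data known. Alternatives were no background correction, median scaling, the authors' value table, other filters, an intensity trend, other designs and each array left out.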

Additional observations from a re-analysis of the deposited data

Results flagged for a closer look

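Differences between genotypes in the response to DMBA were singled out for a closer look. No group holds more than 2 arrays, and arrays were not tested as outliers of their group.

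Between STKO and SKO cells the tested difference called 1 probe, that of Matn4 (2.97), which was undetected on both DMSO arrays and in SKO cells at 24 h. Gdnf, a growth factor for neurons, moved up on both DMBA arrays of STKO cells (5.58, 6.80 and 7.12 under DMSO, at 24 h and at 48 h) and to lower or equal levels in SKO cells (6.24, 5.74 and 6.16), a difference of 1.67. St8sia2, a polysialyltransferase, moved the other way (6.07, 4.87 and 4.63 in STKO and 5.85, 6.28 and 6.02 in SKO cells), a difference of -1.62. Neither was called between the genotypes, and each opposite movement rests on 1 array per point, with Gdnf undetected in STKO cells under DMSO and in SKO cells at 24 h, and St8sia2 in STKO cells with DMBA.

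Between STING-deficient and STING-competent cells 1122 probes were called. The mean difference from DMSO was higher, that is, more positive or less negative, without STING for these genes: Atrnl1 (3.06), Itga11 (2.98), Itgbl1 (2.98), Col8a2 (2.75), Fggy (2.66), the claudin Cldn11 (2.46), Postn (1.41), Ifi27l2a (1.41), Mmp12 (1.16), Abcc4 (1.08), Gstm1 (0.85) and Il18 (0.64). Itga11, Itgbl1 and Ifi27l2a averaged below DMSO in every genotype, so their falls were smaller without STING. Atrnl1 and Cldn11 were near background on all STKO and SKO arrays, so their differences reflect falls in TKO and WT cells. The mean difference was lower without STING for Tnfrsf18 (-2.95), the osteocalcin genes Bglap2 (-2.87) and Bglap (-2.75), which are close copies, Crct1 (-2.60) and the leukotriene receptor Ltb4r1 (-2.58). Tnfrsf18, Bglap2, Bglap and Ltb4r1 were undetected under DMSO in all 4 genotypes. Of inflammatory genes Ccl5 (-2.08), Il11 (-1.95), Il6 (-1.62) and Ptgs2 (-1.37) were lower. Of p53 targets Pmaip1 (-2.06), Ccng1 (-1.21), Plk3 (-1.16), Aen (-1.0) and Cdkn1a (-0.82) were lower, and so were Nqo1 (-1.03), Mmp10 (-1.85) and the inhibitor Timp1 (-0.92).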

How the results depend on the processing

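The limits are the 6 arrays, 1 for each genotype and treatment. No paired analysis was possible because the labels give each genotype and treatment 1 array and no shared replicate number, and genotype was already the block. The pooled comparison called 15 probes. It called 150 without background correction or from the authors' value table, 26 with median scaling, 2 with no filter, 0 with probes detected on every array, 162 with an intensity trend, 4700 in the fit of all 12 arrays, 3734 with time as a term, 0 in SKO cells only and 6 in STKO cells only. At 24 h, with 1088 called, these were 2268 without background correction or from the authors' table, 1776 with median scaling, 0 with no filter, 2557 with a trend and 2253 in the 12-array fit. At 48 h, with 4596 called, no filter gave 2743. Between 24 and 48 h, with 1641 called, they were 2673 without background correction or from the authors' table, 10 with no filter, 2919 with a trend and 2729 in the 12-array fit. For STKO minus SKO, with 1 called, they were 15 without background correction or from the authors' table, 101 with a trend, and 0 with no filter, with probes detected everywhere, in the 12-array fit or with time left in the residual, and no array could be left out. For STING-deficient minus STING-competent cells, with 1122 called, they were 1885 without background correction, 1884 from the authors' table, 211 with no filter and 2174 with a trend. No filter tests more probes and a trend shares the spread by brightness; the cause of the other shifts was not tested.

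Leaving out 1 array gave 0 to 167 probes in the pooled comparison, 0 to 1242 at 24 h, 610 to 4110 at 48 h, 0 to 3093 between the times and 0 to 1412 for the difference by STING. Without background correction, probes past 2-fold numbered 306 at 24 h and 1029 at 48 h in STKO cells, and 179 and 493 in SKO cells. Of genes over 200 kb, 24.5% lay past 2-fold lower in STKO cells at 24 h with median scaling, and with no filter 13.1% and 14.7% in STKO and 4.60% and 6.29% in SKO cells at 24 and 48 h.

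Only values that were not called changed sign. Isg15 at 24 h was -0.0463 without STKO 24 h and 1.18 without SKO 24 h, and at 48 h -0.12 without SKO 48 h and 0.86 without STKO 48 h. Il6 at 48 h was -0.22 without SKO DMSO, 0.36 without STKO DMSO and -0.0274 without STKO 48 h, and the brightest Acta2 probe was -0.0029 without SKO DMSO and 0.0982 without STKO DMSO. For Ccl2, STKO minus SKO was -0.0017 with neqc on the 6 arrays alone. In the difference by STING, Isg15 was -0.26 without WT DMSO, 0.85 without TKO DMSO and -0.014 without STKO 24 h, and Ccl2 was 0.0539 without TKO DMSO and -1.15 without WT DMSO. The median of S phase genes at 24 h was -0.01 as reported and 0.06 with median scaling, and 2 further lists with medians near 0 at 24 h also changed sign.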
